A study of Mus musculus with 12 samples.

Results

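The 9 genes described here encode receptors for haematopoietic growth factors and cytokines other than interleukin-3 and GM-CSF. They are Kit, Flt3, Csf1r, Csf3r, Epor, Il6ra, Il6st, Ifngr1 and Ifngr2, all protein-coding. They were chosen by gene symbol from the 26219 RefSeq genes of the mouse, and every row of the deposited tables that names one of them was taken. Of the 9 genes, 4 are named in the list of Jmjd2a peaks, 4 in the list of Jmjd2c peaks and 2 in the table of start sites bound by both proteins. In all, 6 genes have at least 1 of 8 peaks, and 3 genes are named in none of the tables.

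The cells are L-GMP, leukaemic granulocyte-macrophage progenitors of C57BL/6 background that were transformed by the MLL-AF9 fusion and grown as lines from leukaemic mice. All of them carry the genotype Jmjd2a/b/cf/f;Rosa26::CreERT2, so the untreated controls hold the same floxed alleles and the same tamoxifen-activated Cre at the widely active Rosa26 locus as the treated cells. They were kept in RPMI with 20% serum and 10 ng/ml IL-3, a cytokine that signals through none of the 9 receptors, and knockout was induced with 500 nM 4-hydroxytamoxifen (OHT) for 96 h. Chromatin immunoprecipitation and sequencing gave 12 libraries in 8 groups. The antibodies to Jmjd2a and to Jmjd2c gave 1 library per condition, untreated and OHT, and anti-H3K9me3 and anti-H3K36me3 gave 2 per condition. The tables examined give positions of called peaks and no height, score or value per library. The depth behind each peak is therefore unknown, and neither the OHT effect nor the histone marks were analysed here. A missing call does not show that a protein was absent, and expression of the receptors, or of markers of the cell type, cannot be read from these tables.

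Jmjd2a (Kdm4a) and Jmjd2c (Kdm4c) are demethylases of histone H3 that act on methylated lysine 9 and lysine 36. The receptors fall into families that work differently. Kit, Flt3 and Csf1r are receptor tyrosine kinases that dimerise around a ligand and phosphorylate themselves. The others have no enzyme of their own and pass the signal to JAK kinases bound to their tails, which activate STAT transcription factors. Csf3r and Epor act as homodimers, whereas interleukin-6 and interferon-gamma each use a ligand-binding chain, Il6ra or Ifngr1, and a partner that carries the signal, Il6st (gp130) or Ifngr2. In blood formation Kit and Flt3 mark early progenitors, Csf3r and Csf1r lead to granulocytes and macrophages, and Epor to red cells.

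The bases just before the start sites are shown first, because every peak named for these genes covered a start. Each sequence is the 250 bases before the RefSeq start (RefSeq promoter table, build GRCm38.p6, the primary assembly of mm10), 5′ to 3′ on the gene's own strand, and each CG dinucleotide is in capitals. The table matched 8 of the 9 genes, and Csf1r is named only. At Il6ra, Ifngr2 and Csf3r part of the 250 bases lay outside the peak. The peaks there reached only 57, 127 and 221 bp before the start named with them. Kit and Il6st had peaks of both proteins.
Kit (chr5:75574737-75574986, plus strand): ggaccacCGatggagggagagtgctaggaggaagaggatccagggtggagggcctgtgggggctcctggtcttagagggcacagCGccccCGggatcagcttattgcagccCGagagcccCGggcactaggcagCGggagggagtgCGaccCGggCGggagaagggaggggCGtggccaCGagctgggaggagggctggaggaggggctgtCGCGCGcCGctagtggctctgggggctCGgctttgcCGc
Il6st (chr13:112463820-112464069, plus strand): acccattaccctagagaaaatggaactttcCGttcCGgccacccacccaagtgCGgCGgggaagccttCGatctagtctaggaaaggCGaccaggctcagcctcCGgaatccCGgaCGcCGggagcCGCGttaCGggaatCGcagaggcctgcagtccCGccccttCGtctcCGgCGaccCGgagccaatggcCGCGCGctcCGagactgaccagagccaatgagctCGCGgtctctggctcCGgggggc
Flt3 and Il6ra had a Jmjd2a peak and no Jmjd2c peak.
Flt3 (chr5:147400490-147400739, minus strand): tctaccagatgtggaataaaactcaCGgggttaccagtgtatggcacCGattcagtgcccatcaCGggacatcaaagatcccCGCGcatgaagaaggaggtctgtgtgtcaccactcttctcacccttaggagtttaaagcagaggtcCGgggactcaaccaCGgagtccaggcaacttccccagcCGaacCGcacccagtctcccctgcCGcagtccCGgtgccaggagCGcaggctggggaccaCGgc
Il6ra (chr3:89913197-89913446, minus strand): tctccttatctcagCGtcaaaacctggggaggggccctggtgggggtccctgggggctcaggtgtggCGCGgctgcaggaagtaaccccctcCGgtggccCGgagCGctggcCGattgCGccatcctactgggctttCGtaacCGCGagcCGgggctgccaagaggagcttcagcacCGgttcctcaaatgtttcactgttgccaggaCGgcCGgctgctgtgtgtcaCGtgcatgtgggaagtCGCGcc
Csf3r and Ifngr2 had a Jmjd2c peak and no Jmjd2a peak.
Csf3r (chr4:126024409-126024658, plus strand): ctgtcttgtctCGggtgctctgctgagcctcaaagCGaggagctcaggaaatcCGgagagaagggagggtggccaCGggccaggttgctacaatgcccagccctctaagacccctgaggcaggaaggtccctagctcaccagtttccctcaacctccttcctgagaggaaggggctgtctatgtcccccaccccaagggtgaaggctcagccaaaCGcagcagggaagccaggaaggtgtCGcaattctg
Ifngr2 (chr16:91546809-91547058, plus strand): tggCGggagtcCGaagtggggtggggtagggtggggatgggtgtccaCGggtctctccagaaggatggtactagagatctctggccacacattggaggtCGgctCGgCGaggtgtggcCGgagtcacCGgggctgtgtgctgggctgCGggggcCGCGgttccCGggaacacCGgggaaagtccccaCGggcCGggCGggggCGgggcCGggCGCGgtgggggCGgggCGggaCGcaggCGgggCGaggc
Ifngr1 had no peak of either protein and is shown because its ratio of observed to expected CG dinucleotides (0.618) is close to that of Kit (0.601). It holds fewer of them (11 against 17). From the other Kit start, at 75574991, the ratio was 0.631 with 18 CG.
Ifngr1 (chr10:19591699-19591948, plus strand): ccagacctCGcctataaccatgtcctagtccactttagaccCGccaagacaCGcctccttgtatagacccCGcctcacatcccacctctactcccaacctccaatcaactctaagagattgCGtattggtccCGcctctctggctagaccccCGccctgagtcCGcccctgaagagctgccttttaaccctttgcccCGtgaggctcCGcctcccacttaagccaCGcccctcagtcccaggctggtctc

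The first comparison asked which of the receptor genes each protein occupied. A gene counted as occupied if the distance between a peak and a start site that the deposited tables give for that gene was at most 1000 bp. Jmjd2a occupied 4 of the 9 genes (Kit, Flt3, Il6ra and Il6st), and the background was 27.4% of all 26219 genes. Jmjd2c also occupied 4 of the 9 (Kit, Csf3r, Ifngr2 and Il6st), against 37.9% of all genes. Both proteins were at 2 of the 9, Kit and Il6st, against 24.5% of all genes. Jmjd2a alone was at 2 of the 9, Flt3 and Il6ra, against 2.88%, and Jmjd2c alone at 2 of the 9, Csf3r and Ifngr2, against 13.4%. Neither protein was called at 3 of the 9, Csf1r, Epor and Ifngr1, against 59.3%. Among 18439 protein-coding genes without predicted, olfactory, vomeronasal and taste receptor genes, the background for Jmjd2a was 36.2%, for Jmjd2c 50% and for both 32.4%. Over the same genes it was 3.75% for Jmjd2a alone, 17.6% for Jmjd2c alone and 46.2% for neither. No test was run on these counts, since 9 chosen genes are not replicates, and nothing particular to the receptors is read from them.

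Across the genome Jmjd2a rarely lay at a start without Jmjd2c. Of 7180 genes with Jmjd2a, 754 had no Jmjd2c (10.5%, exact 95% binomial interval 9.8 to 11.2, counting error only). The interval treats genes as independent, although some share a peak. Of the 4 receptor genes with Jmjd2a, 2 had no Jmjd2c, which is too few genes to set against that share. Counted over peaks, 907 of 6908 Jmjd2a peaks near a start (13.1%) did not overlap a Jmjd2c peak, those at Flt3 and Il6ra among them.

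**Figure D1:**
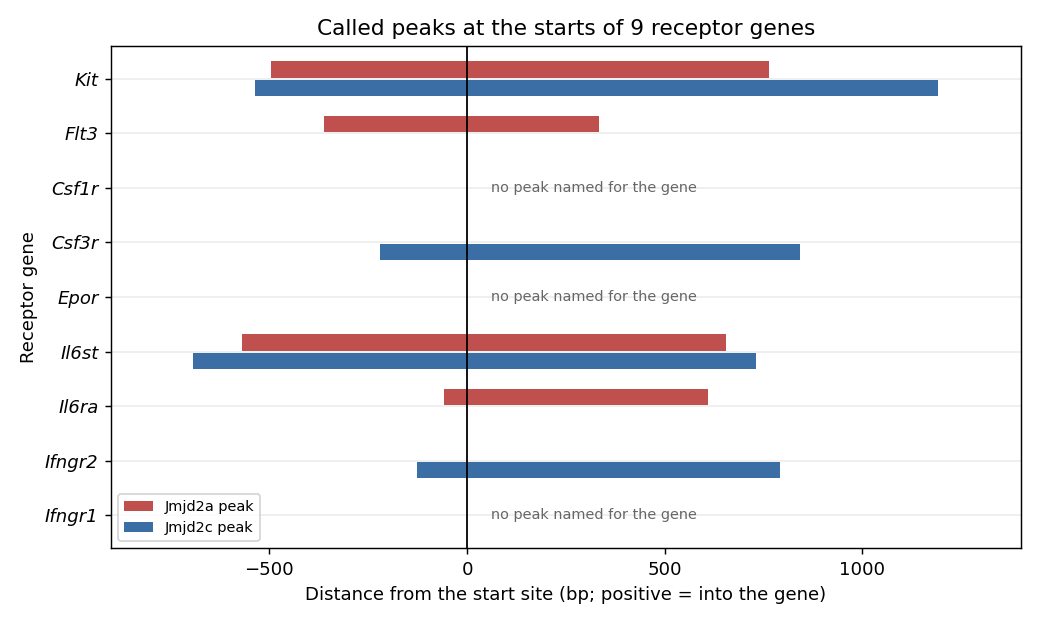
Peaks called at the start sites of the 9 receptor genes; the horizontal axis is the distance in bp from the start site named in the deposited tables, with positive values into the gene, and each bar is a called peak (red Jmjd2a, blue Jmjd2c). All 8 peaks cover the start, from 693 bp before it at Il6st to 1191 bp after it at Kit.

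Among the receptor tyrosine kinase genes, Kit carried both proteins, Flt3 carried Jmjd2a and Csf1r had no called peak. Kit encodes the receptor for stem cell factor (chromosome 5, 75574987 to 75656722, plus strand). Its Jmjd2a peak spanned 1261 bp (75574492 to 75575752), from 495 bp before to 765 bp after the start. The Jmjd2c peak at Kit spanned 1727 bp (75574452 to 75576178), from 535 bp before to 1191 bp after the start. The Jmjd2a peak lay wholly inside the Jmjd2c peak, of which it covered 73.0%, and the overhang of Jmjd2c was mostly on the side of the gene. Both peaks touched exon, 5′ untranslated, coding and intron sequence of Kit. The authors' deposited table of co-bound start sites holds 2 windows for Kit, for transcripts whose starts lie at 75574987 and 75574991.

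Flt3 encodes the receptor for FLT3 ligand (chromosome 5, 147330741 to 147400489, minus strand) and is often mutated in human acute myeloid leukaemia. Its Jmjd2a peak spanned 696 bp (147400156 to 147400851) and was placed almost evenly about the start, with 362 bp before and 333 bp after it. Of the 8 receptor peaks it was the only one that reached further upstream than downstream. No Jmjd2c peak lay within Flt3. The nearest, 28888 bp from the start, covered the start of the neighbouring gene Pan3, which encodes a subunit of a deadenylase complex, and was 2165 bp wide (147429377 to 147431541).

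Csf1r encodes the receptor for M-CSF and interleukin-34 (chromosome 18, 61105572 to 61131139). No peak of either list lay within the gene. The nearest of each was at Hmgxb3, 45.2 kb beyond the gene for Jmjd2a and 45.1 kb for Jmjd2c. On the other side the nearest Jmjd2c peak was at Pdgfrb, 59.6 kb away, and the nearest Jmjd2a peak at Tcof1, 256 kb away.

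Of the homodimeric cytokine receptor genes, Csf3r carried Jmjd2c and Epor neither protein. Csf3r, the receptor for G-CSF (chromosome 4, 126023441 to 126044975, plus strand), had a Jmjd2c peak of 1064 bp (126024438 to 126025501), with 221 bp before and 842 bp after the start. The 3 curated transcripts named under this peak share that start, 126024659, which lies inside the bounds that the RefSeq table gives the gene. The nearest Jmjd2a peak was 22268 bp from the start, at Mrps15, a mitochondrial ribosomal protein gene just beyond the far end of Csf3r, where Jmjd2c was called as well.

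Epor encodes the erythropoietin receptor and is the shortest of the 9 genes at 4680 bp (chromosome 9, 21958897 to 21963576, minus strand). The closest peaks lay past its far end, at the start of Swsap1, a gene of homologous recombination. From the Epor start they were 7850 bp away for Jmjd2a and 7225 bp for Jmjd2c. Epor thus had peaks of both proteins in its immediate neighbourhood, outside the gene and named for another start.

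The interleukin-6 receptor chains shared Jmjd2a and differed in Jmjd2c. Il6st, the signalling chain gp130 that also serves LIF, oncostatin M and interleukin-11 (chromosome 13, 112464070 to 112506860, plus strand), had a Jmjd2a peak of 1225 bp (112463502 to 112464726), reaching from 568 bp before to 656 bp after the start. Its Jmjd2c peak of 1425 bp (112463377 to 112464801) reached from 693 bp before to 731 bp after the start. As at Kit, the Jmjd2a peak lay wholly inside the Jmjd2c peak, here covering 86.0% of it. These peaks were nearly centred on the start, in contrast to those at Kit. Il6ra, the chain that binds interleukin-6 (chromosome 3, 89869324 to 89913196, minus strand), had a Jmjd2a peak of 668 bp (89912552 to 89913219) with 57 bp before and 610 bp after the start. That peak therefore lay 91.5% on the downstream side, the highest share of the 8. No Jmjd2c peak was called within Il6ra, the nearest being 47164 bp from its RefSeq start, over Atp8b2.

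The interferon-gamma receptor chains differed as well. Ifngr2, the chain that brings JAK2 to the receptor (chromosome 16, 91547059 to 91564007, plus strand), had a Jmjd2c peak of 919 bp (91546967 to 91547885), with 127 bp before and 791 bp after the start. Its nearest Jmjd2a peak, at Tmem50b, was 50221 bp from the RefSeq start. Ifngr1, the ligand-binding chain (chromosome 10, 19591949 to 19610229, plus strand), stood furthest from any peak among the 8 genes with a promoter in the table. Its start was 315437 bp from the nearest Jmjd2a peak and 315366 bp from the nearest Jmjd2c peak, both at Pex7. Of all promoters in the RefSeq table, 82.9% were nearer to a Jmjd2a peak and 84.4% nearer to a Jmjd2c peak. On its other side the nearest peaks of both proteins were at Tnfaip3, 576 kb away, an inhibitor gene of NF-kappaB signalling.

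The peaks at Kit and Il6st, which had both proteins, were wider than those at the genes with a single one. The Jmjd2a peaks at Kit and Il6st were 1261 and 1225 bp wide, in the 85.8 and 84.0 percentiles of Jmjd2a peaks near a start, and those at Flt3 and Il6ra were 696 and 668 bp wide, in the 42.7 and 39.9 percentiles. The Jmjd2c peaks followed the same order, with 1727 bp at Kit (percentile 74.9) and 1425 bp at Il6st (54.7) against 1064 bp at Csf3r (26.9) and 919 bp at Ifngr2 (18.7). These are single peaks at a few genes, and the difference was not tested. Over all peaks near a start, the 25th and 75th percentiles of width were 530 and 1062 bp for Jmjd2a. For Jmjd2c they were 1031 and 1729 bp. Peaks that overlap the other protein were wider over the whole lists too, with medians near a start of 791 bp for shared and 615 bp for unshared Jmjd2a peaks, and of 1425 and 1243 bp for those of Jmjd2c. A wide peak also has more room to overlap another, and width is not a measure of signal.

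**Figure D2:**
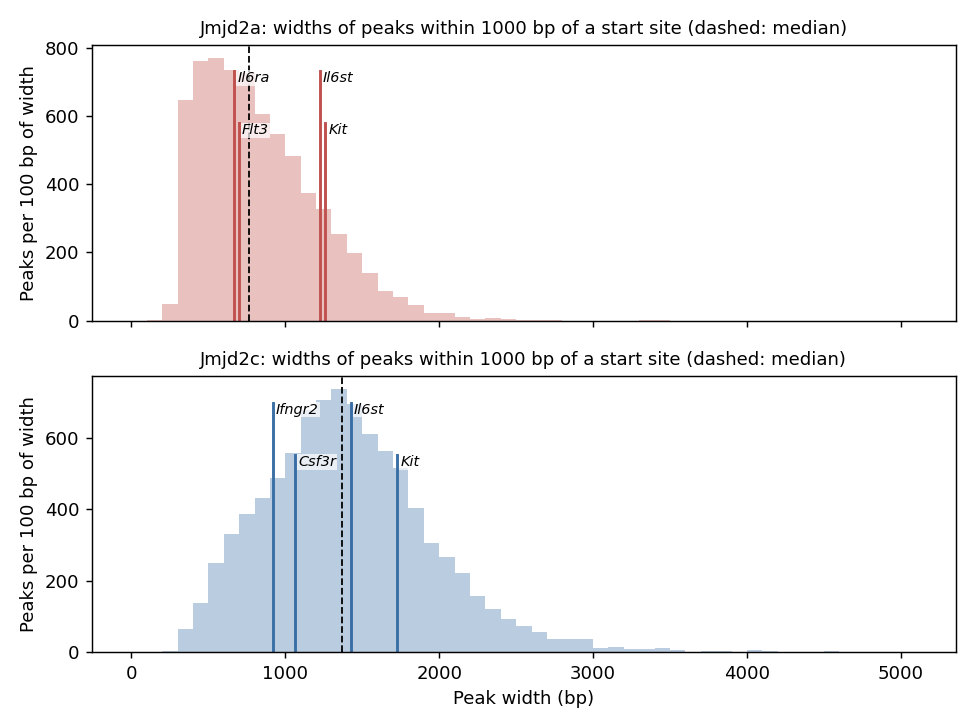
Widths in bp of all Jmjd2a (upper) and Jmjd2c (lower) peaks within 1000 bp of a start site, as histograms of 100 bp bins, with the receptor genes' own peaks as labelled lines and the median dashed. Kit and Il6st lie to the right of the median in both panels (761 and 1366 bp), and the genes with a single protein to its left.

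Peaks at the receptor genes leaned into the gene, as did most peaks of both lists. In 7 of the 8 peaks the longer part lay downstream of the start, and the downstream share ran from 47.9% at Flt3 to 91.5% at Il6ra. Over all peaks that cover the start of a single gene of known strand, 72.7% of 3185 Jmjd2a peaks and 80.2% of 5453 Jmjd2c peaks were longer downstream. Each receptor peak touched features of that gene alone, as did 77.2% of all Jmjd2a and 74.9% of all Jmjd2c peaks that cover a start. Where both proteins were present, nesting was also common elsewhere: 3824 of the 6001 Jmjd2a peaks near a start that overlap Jmjd2c (63.7%) lay wholly inside a Jmjd2c peak. At Kit the Jmjd2c peak was 1.37 times and at Il6st 1.16 times as wide as the Jmjd2a peak, against a median ratio of 1.72.

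The peaks at Kit, Il6st and Flt3 stood far from other peaks of the same list. From the Jmjd2a peak at Kit the next one was 358 kb away, and from the Jmjd2c peak 529 kb, which put them in the 95.4 and 98.1 percentiles of all peaks. At Il6st the next Jmjd2a and Jmjd2c peaks were both 195 kb away (percentiles 89.8 and 91.7), and at Flt3 the next Jmjd2a peak 183 kb (88.8). Over the whole lists, 23.2% of Jmjd2a and 18.4% of Jmjd2c peaks were more than 100 kb from the next. At Csf3r, Ifngr2 and Il6ra the gaps were 21.0, 48.9 and 47.1 kb, near the medians of 38.5 kb for Jmjd2a and 31.4 kb for Jmjd2c.

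Several of the receptor genes sit beside related receptor genes, and these neighbours were examined after the first values had been seen. Ifngr2 belongs to a cluster on chromosome 16 with Ifnar2 and Ifnar1, the chains of the type I interferon receptor, and Il10rb, a chain of the interleukin-10 receptor. Jmjd2c covered the starts of Ifnar2 (1241 bp; 91372486 to 91373726), Il10rb (1601 bp; 91405640 to 91407240) and Ifngr2, and no peak was called at Ifnar1. Jmjd2a had no peak in the whole cluster, and none over the 552 kb between its peaks at Paxbp1 and Tmem50b. The cluster therefore held 3 Jmjd2c peaks and no Jmjd2a peak.

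Kit lies between Pdgfra and Kdr, which encode related tyrosine kinase receptors for platelet-derived and vascular endothelial growth factors. Within the 830 kb of this cluster Jmjd2c had a single peak, at Kit. Jmjd2a had that at Kit and a peak of 437 bp over an exon and the 3′ untranslated region of Kdr (75933477 to 75933913), 44515 bp from the Kdr start. No peak was called at Pdgfra. Flt3 has as its relative Flt1, a vascular endothelial growth factor receptor gene on the same chromosome. Between the ends of these genes Jmjd2a had 3 peaks, at the Flt3 start, in an intron and coding exon of Flt1 (618 bp) and at the Flt1 start (1067 bp; 147725402 to 147726468). Jmjd2c had only the Pan3 peak there, so both receptor genes of this pair had Jmjd2a at the start without Jmjd2c. The next Jmjd2c peak beyond Flt1, outside this stretch, also had Flt1 as its nearest gene. Csf1r adjoins Pdgfrb, another platelet-derived growth factor receptor gene, whose start lay under a Jmjd2c peak of 1363 bp while Csf1r had none.

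**Figure D3:**
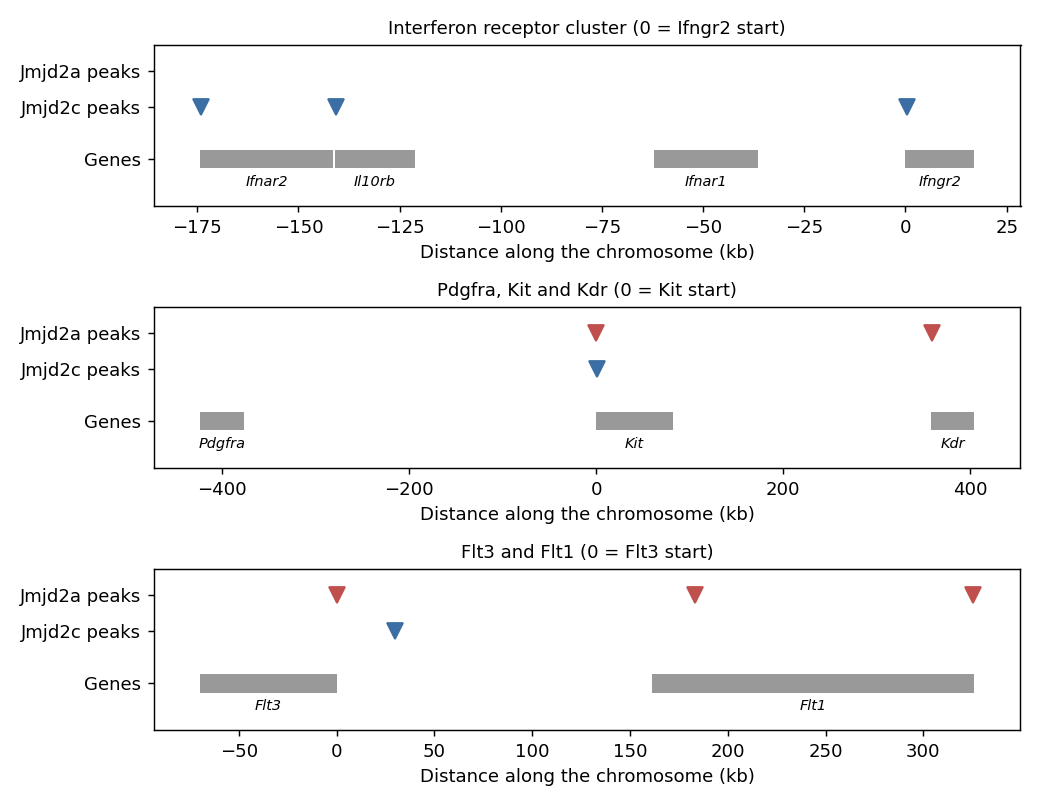
Peaks in the receptor gene clusters around Ifngr2, Kit and Flt3; the horizontal axis is the distance in kb along the chromosome from the start of the gene named in each title, grey bars are gene bodies and triangles mark peak centres (red Jmjd2a, blue Jmjd2c). The interferon receptor cluster holds 3 Jmjd2c peaks and no Jmjd2a peak, and the stretch from Flt3 to Flt1 holds 3 Jmjd2a peaks and 1 Jmjd2c peak.

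Promoter sequence, which played no part in choosing the genes, varied widely among them. CpG content is given as the observed over the expected number of CG dinucleotides in the 250 bases before the start. Il6st had 26 CG and a ratio of 0.959, above 92.1% of all promoters in the table. Ifngr2 had 25 CG, a ratio of 0.841 and the highest GC content of the 8 genes, 74.0%. Il6ra (0.682), Ifngr1 (0.618), Kit (0.601) and Flt3 (0.597) followed close together. The value for Kit is from its start at 75574987, and from that at 75574991 it was 0.631, above Ifngr1. Epor (0.285) and Csf3r (0.267) had 6 CG each and lay below the median of 0.374 over all 32851 promoters.

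Occupancy and CpG content went together over all promoters. The median ratio was 0.797 at 6636 promoters with both proteins, 0.749 at 3917 with Jmjd2c alone, 0.695 at 871 with Jmjd2a alone and 0.228 at 21427 with neither. Il6st, Il6ra and Ifngr2 were close to or above the median of their own class, and Kit and Flt3 below it. Csf3r and Ifngr1 stood apart from theirs. Csf3r had Jmjd2c at a CpG-poor promoter, as did 13.4% of the 22742 promoters that are not CpG-rich (GC above 50% and a ratio above 0.6), against 74.3% of the 10109 that are. Ifngr1 had neither protein at a promoter with a GC content of 59.2% and a ratio of 0.618, just past the limit for the ratio, as did 20.8% of CpG-rich promoters. Kit, with a ratio of 0.601 from one start and 0.631 from the other, was also past that limit. Flt3, with 0.597, fell just short of it and had Jmjd2a at a promoter that is not CpG-rich. Jmjd2a was at 9.08% of such promoters and at 53.8% of CpG-rich ones. These shares describe promoters, which are not replicates, and the part of sequence in the calls was not tested.

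**Figure D4:**
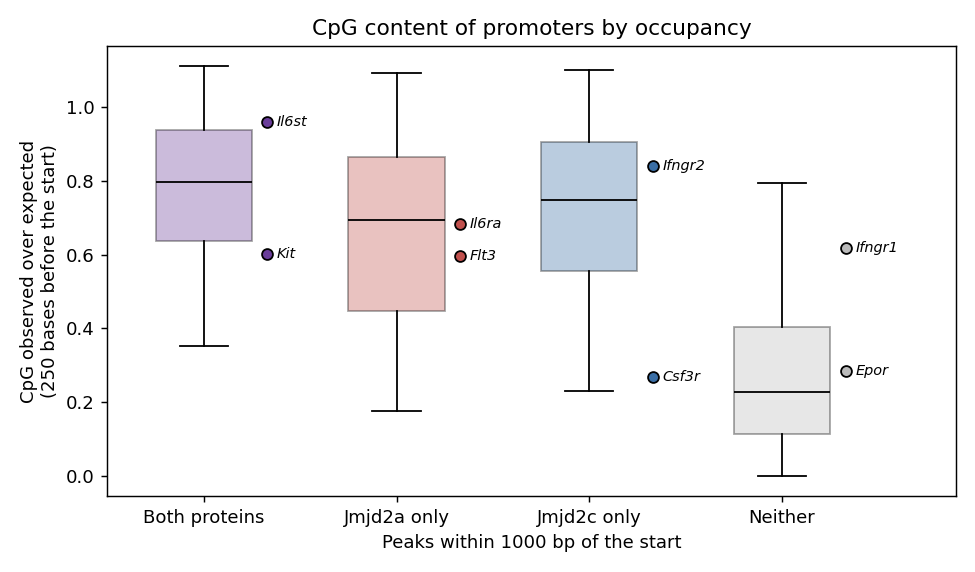
CpG observed over expected in the 250 bases before the start, for all promoters of the RefSeq table by the peaks within 1000 bp (boxes: quartiles and median; whiskers: 5th to 95th percentile) and for 8 receptor genes (points). Csf3r, at 0.267, lies far below the Jmjd2c median of 0.749, and Ifngr1, at 0.618, far above the median of 0.228 for promoters with neither protein.

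Short motifs were searched in the same 250 bases on both strands. GGGCGG, the GC box, was found at 5 of the 8 genes (Kit, Il6st, Ifngr1, Ifngr2 and Epor) and at 32.7% of all promoters. Ifngr2 held 4 copies in the last 57 bases before its start, some adjoining or overlapping by a base, and Kit a single copy beginning 98 bases before the start. CCAAT was found at Il6st, Ifngr1 and Ifngr2 and at 33.8% of all promoters, and both copies at Il6st lay on the gene's strand, 65 and 33 bases before the start. The E-box CACGTG was found at Il6ra alone, 24 bases before the RefSeq start (6.02% of all promoters). AGATAA, a form of the GATA motif, was found at Epor and Il6ra (9.99%), and at Epor it began 54 bases before the start. TGTGGT, the core of the RUNX motif, was found at Epor (14.0%). TATAAA (12.4%), the STAT pattern TTCNNNGAA (7.02%) and the PU.1 pattern GAGGAAGT (2.44%) were found at none of the 8. Apart from copies of GGGCGG at Ifngr2, no match overlapped another. The AGATAA match at Il6ra and the CCAAT match at Ifngr2 began 245 and 160 bases before the RefSeq start, outside the peaks of these genes. A match is a run of letters and not a site of binding, and the part of motifs in the peak calls was not tested.

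The other genes of these pathways were taken as lists of receptors, ligands and signal transducers. Of 34 further cytokine and growth factor receptor genes, Jmjd2a occupied 3 (8.82%, background 27.4%) and Jmjd2c 11 (32.4%, background 37.9%). Over protein-coding genes these backgrounds were 36.2% and 50%. Like Kit and Il6st, Il15ra, which encodes the interleukin-15 receptor alpha chain, had both proteins (1030 bp for Jmjd2a and 2175 bp for Jmjd2c), as did Crlf2, a chain of the TSLP receptor (860 and 1314 bp). Lepr, the leptin receptor gene, was the only gene of this list of 34 in the class of Flt3 and Il6ra (Flt1, described above, is not on the list), with a Jmjd2a peak of 808 bp that ended 356 bp from a start. The class of Csf3r and Ifngr2, Jmjd2c alone, held 9 of the 34, among them the growth hormone receptor gene Ghr (873 bp), Ifnar2, Il10ra (1037 bp) and Il10rb. Jmjd2c alone was thus at 26.5% of the list, against 13.4% of all genes and 17.6% of protein-coding genes. The remaining 22, including Pdgfra and Ifnar1, had neither (64.7%, against 59.3% and 46.2%). Both proteins were at 5.88% (against 24.5% and 32.4%) and Jmjd2a alone at 2.94% (against 2.88% and 3.75%). Likeness here means only the same class over the 2 peak lists.

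The next list holds 8 ligand genes of the 9 receptors. It is not complete, since it leaves out LIF, oncostatin M and interleukin-11, which Il6st also serves. Of these, Csf1 (M-CSF) had a Jmjd2c peak of 1411 bp over its start, and Kitl (stem cell factor), Flt3l, Csf3 (G-CSF), Il34, Epo, Il6 and Ifng had neither protein (7 of 8, against 59.3% of all genes and 46.2% of protein-coding genes). None of the 8 had Jmjd2a. Signal transducers and inhibitors that act below the receptors had Jmjd2a at 9 of 20 (45.0%; 27.4% of all genes and 36.2% of protein-coding genes) and Jmjd2c at 16 of 20 (80.0%; 37.9% and 50%). Of all 7180 genes with Jmjd2a, 89.5% also had Jmjd2c, as did all 9 of these. They include the ubiquitin ligase genes Cbl (450 bp for Jmjd2a, 918 bp for Jmjd2c) and Cblb (1513 and 1726 bp), whose products remove activated Kit and other receptors, and the adaptor genes Gab2 (625 and 2080 bp) and Grb2 (526 and 2667 bp). Jmjd2c alone was at 7 of the 20 (35.0%, against 13.4% of all genes and 17.6% of protein-coding genes). Among these 7 were Jak2 (2450 bp), the kinase of Epor and Ifngr2, and the Src family kinase gene Lyn (2025 bp). The PI3-kinase gene Pik3cd (2803 bp) and the phosphatase gene Ptpn11 (1640 bp) also had Jmjd2c alone. Cish, Ptpn6, Shc1 and Socs3 had neither (20.0%, against 59.3% and 46.2%). The lists are small and were not tested, and Grb2 had neither protein when the start site of the RefSeq promoter table was used.

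**Figure D5:**
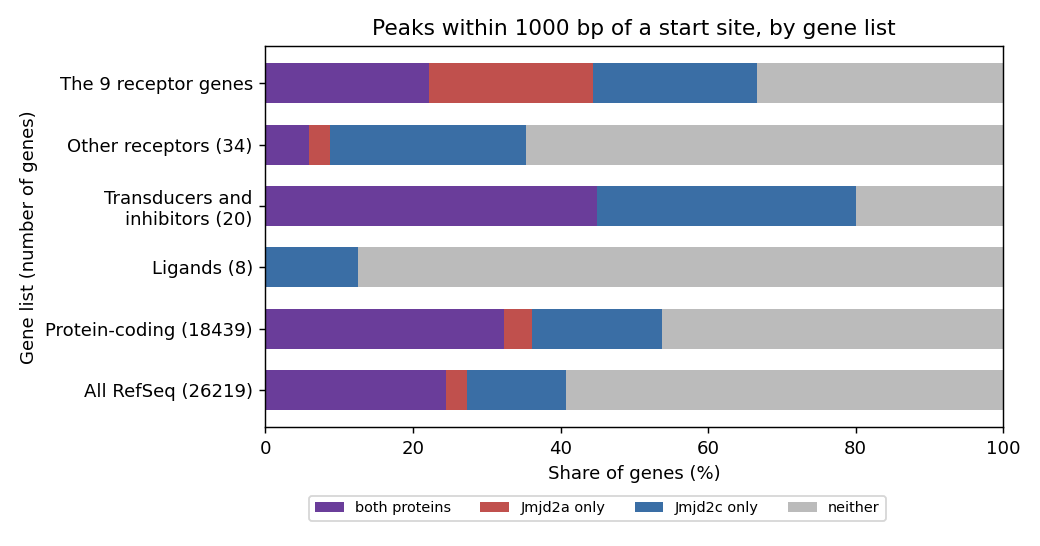
Share of genes in percent with Jmjd2a and Jmjd2c (purple), Jmjd2a only (red), Jmjd2c only (blue) or neither (grey) within 1000 bp of a start site, for the 9 receptor genes, the 3 lists around them, protein-coding genes and all RefSeq genes. Jmjd2c is at 80.0% of the transducer and inhibitor genes and at 12.5% of the ligand genes.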

How the data were processed

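Per the file headers, the authors deposited a position table of peaks for each of Jmjd2a and Jmjd2c, in bp, with nearest start site and distance, and a table of windows reaching 1 kb either way from co-bound starts. Bowtie 0.12.7, SAMtools and bedtools 2.25.0 and the build mm10 come from the submitters' processing notes. For the peak caller, threshold, control and pooling of libraries the sources used here give nothing. The files hold no score, signal or depth.

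Coordinates in the files count from 0 with the end left out, and those printed count from 1. The genes and lists were chosen with earlier results of these data known. Start sites were those named in the files, of which 16875 of 17007 accessions matched the RefSeq gene table of GRCm38.p6. Background genes have a curated transcript on chromosomes 1 to 19, X or Y. A missing start can lower an occupied share. Peaks called overlapping share at least 1 bp. Strand, starts and sequence came from the RefSeq promoter table, whose starts differ from the files' by 34 bp at Il6ra and 35 bp at Ifngr2. No p-value was computed and no sample groups were compared. The genes named are the 9 receptors, every ligand gene and up to 4 genes per occupancy class of the other lists in alphabetical order, and the few others named were picked after their values were seen. The distance, overlap and motif steps were checked on simulated data. The software was Python 3.11.15 with matplotlib 3.10.9, scipy 1.17.1, pandas 2.3.3 and numpy 2.4.6.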

Additional observations from a re-analysis of the deposited data

How the results depend on the processing

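The counts of receptor genes with Jmjd2a (4), Jmjd2c (4) and both (2) were the same with windows of 500 and 5000 bp, at any distance and with the start sites of the RefSeq promoter table, which lacks Csf1r. The 500 bp window could not remove a call, because every receptor peak covers a start. The 5000 bp window and the setting at any distance could not add Csf1r, Epor or Ifngr1, whose starts are named beside no peak. With the wider 50% of each peak list, used because the lists hold no score, 2 genes had Jmjd2a and 2 had Jmjd2c, Kit and Il6st in each case, and Flt3, Il6ra, Csf3r and Ifngr2 lost their calls by construction. The overlaps at Kit and Il6st held when 50% of the shorter peak was required. The share of all genes with Jmjd2a was 36.2% over protein-coding genes, 26.6% and 28.7% with windows of 500 and 5000 bp, and 30.8% with the promoter table's starts. For Jmjd2c it was 50% over protein-coding genes, 38.7% with 5000 bp and 43.0% with the promoter table, and for both proteins 32.4%, 23.8% (500 bp), 25.6% (5000 bp) and 27.6%. The promoter table was added for these shares, and for the class of single genes, after seeing the data. Of 71 receptor and list genes 57 are in it, and 56 kept their class. No paired analysis was possible because the peak lists hold no values per library. Depth is unknown, so weak sites may be missed.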
